A study of Drosophila melanogaster with 2 samples.

Results

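The intronic peaks near a TSS were 430 of the 3016 conservative peaks of CG5953, a fly protein whose function the annotation does not name, on the Drosophila melanogaster genome. A peak belonged to them when its summit lay inside a gene and in no annotated exon, and was more than 500 bp and at most 2000 bp from the nearest annotated transcription start site (TSS). The rule used position alone, and no signal value entered it. The chromatin came from whole embryos aged 0 to 24 h, of transgenic flies whose CG5953 was joined to the green fluorescent protein eGFP (CG5953-eGFP). The DNA bound by the fusion protein was collected with an antibody to GFP and sequenced (ChIP-seq). There were 2 biological replicates of this 1 condition, no other condition, and control libraries were not analysed here. Whole embryos mix all cell types and many stages, so a peak in few cells cannot be told apart from a weaker peak in many.

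Introns are the parts of a gene that are transcribed and then cut out of the RNA. In flies the first introns of developmental genes are often long and hold enhancers, short stretches of DNA where transcription factors bind and set when and where a gene is read. Many fly genes also have alternative promoters, so an internal TSS can lie inside an intron of a longer transcript, and the DNA just before that TSS is then both intronic and upstream of a start.

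The sequences around the 6 strongest of these peaks, leaving out 1 chromosome arm, are shown because they carry the highest signals described below. Each runs from 100 bp before to 100 bp after the summit, on the plus strand of dm6, read from the RefSeq copy of the Release 6 genome. Capitals mark 3 of the motifs searched, on either strand: GAGAG, read by GAGA factor; a GATA motif (NGATAN, with A or T first and A or G last), read by zinc-finger factors of the GATA family; and a forkhead motif (TNTTTAC, with A or G as N). The windows are chr2L:6612623-6612823 in CG11050, chrX:2137267-2137467 in ph-p, chrX:4910269-4910469 in CG32772, chrX:13640414-13640614 in NFAT, chrX:5918815-5919015 in CG3726 and chr2L:16351160-16351360 in chif, where the gene Hyls1 also holds the summit. A match is a run of letters and not a bound site.
CG11050: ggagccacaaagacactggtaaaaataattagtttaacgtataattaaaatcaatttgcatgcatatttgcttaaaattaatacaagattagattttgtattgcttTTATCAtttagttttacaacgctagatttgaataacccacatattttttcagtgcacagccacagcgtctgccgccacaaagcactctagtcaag
ph-p: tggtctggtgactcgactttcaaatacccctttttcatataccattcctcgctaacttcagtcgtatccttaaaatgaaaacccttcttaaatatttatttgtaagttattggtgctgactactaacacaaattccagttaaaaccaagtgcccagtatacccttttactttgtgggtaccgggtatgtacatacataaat
CG32772: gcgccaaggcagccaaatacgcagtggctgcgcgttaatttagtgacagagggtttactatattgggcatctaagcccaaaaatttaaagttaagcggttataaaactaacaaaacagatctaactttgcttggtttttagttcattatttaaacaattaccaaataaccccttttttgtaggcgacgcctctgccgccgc
NFAT: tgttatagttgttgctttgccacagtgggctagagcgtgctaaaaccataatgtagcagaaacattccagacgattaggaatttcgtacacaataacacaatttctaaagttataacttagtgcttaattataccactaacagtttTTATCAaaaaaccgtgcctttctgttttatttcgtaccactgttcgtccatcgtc
CG3726: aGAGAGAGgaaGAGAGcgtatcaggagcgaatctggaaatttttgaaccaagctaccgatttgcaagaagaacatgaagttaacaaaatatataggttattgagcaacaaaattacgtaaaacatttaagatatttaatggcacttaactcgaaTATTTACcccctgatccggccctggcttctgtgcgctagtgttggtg
chif: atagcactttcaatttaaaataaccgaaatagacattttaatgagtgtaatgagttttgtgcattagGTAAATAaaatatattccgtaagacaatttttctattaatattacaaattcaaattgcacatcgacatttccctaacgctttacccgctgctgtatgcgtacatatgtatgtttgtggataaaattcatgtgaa
The windows of CG11050 and NFAT held 1 GATA match each, that of chif held 1 forkhead match, and that of CG3726 held 3 overlapping or neighbouring GAGAG matches and 1 forkhead match. The ph-p and CG32772 windows held none of the 3. The GC content of the 6 windows lay between 29.4% in chif and 40.8% in CG32772.

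Every signal below is the authors' own value per peak, in a unit the files do not state. Its scale may differ between lists, so the values of the 2 replicates stand side by side and their difference is not read as more or less binding. The highest, in the second intron of CG11050, reached 1009 in the conservative set, with a matching signal of 560 in replicate 1 and 445 in replicate 2. Its summit lay 1036 bp downstream of a TSS of CG11050, inside an intron of 140 bp. The peak, 263 bp wide, was longer than this intron and had rank 3 among all conservative peaks. Next came a peak of 837 in ph-p, which encodes a Polycomb group protein that helps keep genes silent, with 468 in replicate 1 and 377 in replicate 2. Its summit was in the first intron, 512 bp before an internal TSS of the same gene. The number was the larger in replicate 1 for both peaks and for 22 of the 25 strongest, as it was for 60.4% of all 2990 conservative peaks matched in both replicates.

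The third signal, 714, was measured where HmgD and HmgZ overlap, 2 genes for small chromosomal proteins with an HMG box, with 457 in replicate 1 and 248 in replicate 2. CG32772 followed with 620 (replicates 339 and 262), 1267 bp downstream of its TSS. Adf1, a transcription factor first described at the Adh promoter, had 533 (272 and 267), 785 bp downstream of its TSS. NFAT, a Rel-domain transcription factor, had 518 (290 and 227), 1661 bp before an internal TSS. All 4 peaks were matched in both replicates, as were 2990 of all 3015 conservative peaks, and the values in Adf1 were nearly equal.

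The next signals were 491 in CG3726 (replicates 236 and 257), 469 in chif (299 and 183), which encodes a Dbf4-related partner of the Cdc7 kinase, and 451 in LPCAT (244 and 208), a phospholipid acyltransferase. In mub, a KH-domain RNA-binding protein, the signal was 447 (190 and 249). CHES-1-like, a forkhead transcription factor, had 433 (233 and 204.7). Further peaks among the 25 strongest lay in lncRNA:CR44810 (433), Trl (431), cno (430), norpA (398), CG31635 (372), CG9837 (371), prage (353), CG4496 (334), Reph (328), Mad (326), for (318), edl (318) and KCNQ (316). Trl encodes GAGA factor, cno an adherens junction protein, norpA the phospholipase C of vision, Mad the Smad of the Dpp pathway, for a cGMP-dependent protein kinase, edl a regulator of ETS factors and KCNQ a potassium channel.

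All of the 25 strongest peaks were in the own thresholded lists of both replicates. These were chosen by signal: the weakest of the 25 had 316, while the 118 of the 430 peaks in neither own list reached at most 92.9. Equally strong peaks of other locations were not counted. In 23 of the 25 the nearest TSS belonged to a gene that held the summit, 22 were in a first intron, 11 lay before an internal TSS of their own host and 9 were on the X chromosome. The 2 with the TSS of another gene nearest were those in CHES-1-like (lncRNA:CR43287) and KCNQ (mlt). None of the 4 stretches of 50 bp cut from each of the 25 summit windows had a second exact copy on the chromosome arms. Shorter copies and copies with a mismatch were not searched. A related gene lies next to ph-p, and whether the reads of both genes were told apart was not tested.

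On the chromosome arms, where 1 peak on an unplaced scaffold was set aside, the 430 peaks were 14.3% of 3015 (95% Clopper-Pearson interval 13.0% to 15.6%). The share was 15.7% in replicate 1's own thresholded list (311 of 1975 peaks) and 15.1% in replicate 2's (251 of 1660), a mean of 15.4% ± 0.443 (SD, n = 2). The other conservative peaks were 1365 within 500 bp of a TSS (promoter peaks), 648 in introns more than 2000 bp from a TSS (far introns), 410 between genes and 162 in exons. All intervals here cover counting error of peaks or genes only, and the depth of the libraries is unknown.

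The introns that meet the same position rule, called eligible DNA here, span 11.4 Mb, and they held 37.8 peaks per Mb (exact Poisson interval 34.3 to 41.5). Far introns held 15.3 per Mb (14.1 to 16.5), intergenic DNA 10.4, exons 6.12, promoters 75.9 and the arms as a whole 21.9. The density of intronic peaks near a TSS therefore lay above those of far introns, intergenic DNA and exons and below that of promoters, by more than the counting intervals. In the own lists it was 27.3 per Mb in replicate 1 and 22.04 in replicate 2 (24.7 ± 3.73, SD, n = 2), lists that hold fewer peaks than the conservative set. All densities count every base of the arms, with those of Y (3.67 Mb, 0 conservative peaks) and of transposable elements. In which of these bases a peak could be called was not tested.

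Within the rule's range the density ran down with distance. It was 49.9 per Mb (41.2 to 60.03) from 500 to 750 bp, 42.8 from 750 to 1000 bp, 36.9 from 1000 to 1250 bp, 34.3 from 1250 to 1500 bp, 26.8 from 1500 to 1750 bp and 30.1 (22.1 to 40) from 1750 to 2000 bp. The first and last of these intervals do not overlap, while neighbouring bins differ by less than their intervals. In intronic DNA closer than 250 bp, which belongs to promoters by the rule, the upstream side of a TSS held 136 peaks per Mb (117 to 158) and the downstream side 47.8 (32.5 to 67.8). Beyond 500 bp the intervals of the 2 sides overlapped in every bin up to 2000 bp.

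**Figure D1:**
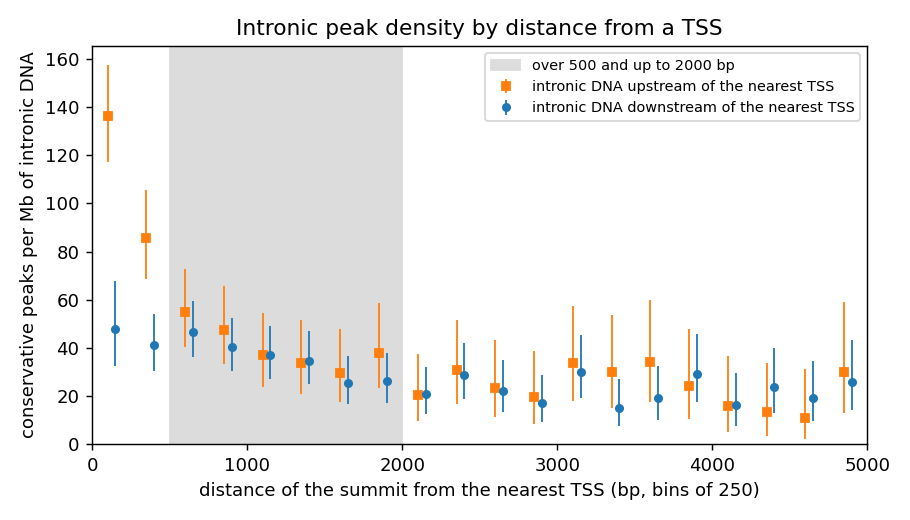
Conservative peaks per Mb of intronic DNA (y) in bins of 250 bp of distance from the nearest TSS (x), upstream (squares) and downstream (circles) of it, with exact Poisson intervals as lines. The grey band is the range of the rule: upstream DNA closer than 250 bp holds 136 per Mb, and inside the band both sides run at 25.3 to 54.9 per Mb.

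The limits of the rule cut through peaks of similar signal. Just inside the lower limit were peaks in CG10663 (502 bp, signal 62.5), aru (503 bp, 170) and dpy (504 bp, 113), and just outside it those in lncRNA:CR42736 (500 bp, 63.2), qtc (497 bp, 124) and CG31612 (494 bp, 190). Just inside the upper limit were peaks in CG1677 (2000 bp, 137), Fim (1995 bp, 63.8) and IP3K2 (1991 bp, 65.6), and just outside it those in fra (2001 bp, 55.3), Pgant9 (2006 bp, 53.1) and lncRNA:CR44320 (2017 bp, 187).

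The median signal was 88.1 (quartiles 68.3 and 130) for intronic peaks near a TSS, 78.2 for far introns, 76.8 for intergenic peaks, 65.0 for exonic peaks, 88.3 for promoter peaks and 83.0 for all 3015. Among 4 equal groups of all conservative peaks by signal, weakest to strongest, they made up 11.1%, 14.9%, 15.1% and 15.9%. They supplied 4 of the 25 strongest peaks of the set and 19 of the strongest 100. Their signals spread from 2.45 to 1009.

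Repeat in the replicates was read from the lists that the authors thresholded for each library alone. Of the 430 peaks, 62.6% (57.8% to 67.1%) overlapped a peak of replicate 1's own list, against 56.5% of all conservative peaks. In replicate 2's own list it was 53.0% (48.2% to 57.8%), against 50.1% of all. In both lists it was 43.0% (38.3% to 47.9%), against 39.2% of all, and for far introns the share was 34.7% (31.1% to 38.5%). The interval of the 430 peaks held the share of all conservative peaks in replicate 2 and in both lists, and not in replicate 1. A further 27.4%, 118 peaks, were in neither own list, and those had a median signal of 62.5, against 138 for the 185 in both.

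**Figure D2:**
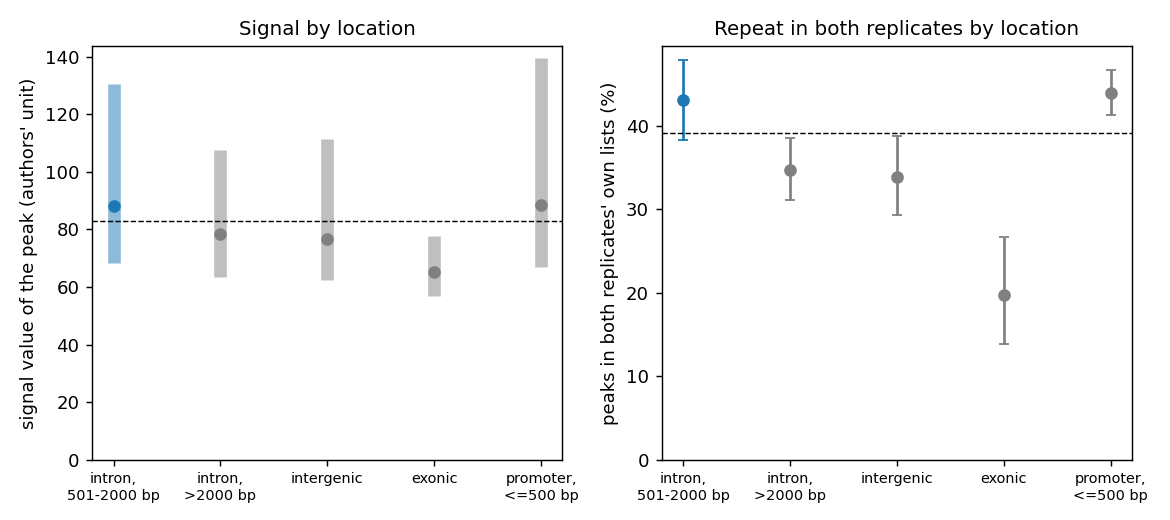
Left, the signal value of conservative peaks (authors' unit; point, median; bar, quartiles) by location. Right, the share of each class found in both replicates' own thresholded lists (points, with 95% Clopper-Pearson intervals); dashed lines give all 3015 peaks, with a median of 83.0 and a share of 39.2%. Intronic peaks near a TSS are near promoter peaks in both panels.

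In each replicate's ranked list, the longer list before thresholding, 430 of the peaks had a matching peak in replicate 1 and 428 in replicate 2. Of all 3015 conservative peaks, 3009 and 2993 had one, so nearly every peak of the set was matched. The values that follow are those of the intronic peaks near a TSS. The matched signals had a median of 48.3 (quartiles 34.4 and 74.6) in replicate 1 and 41.4 (32.2 and 61.3) in replicate 2. The number was the larger in replicate 1 for 278 of 428, with a median ratio of replicate 1 over replicate 2 of 1.15, against 1806 of 2990 and a ratio of 1.09 for all conservative peaks. Across the 428 peaks the Spearman correlation of both libraries was 0.676, a description over peaks that share the same libraries and are not independent. It was 0.632 across all 2990 conservative peaks matched in both and 0.674 across promoter peaks. Of the 430 peaks, 2 had no match in replicate 2. These 2 peaks lay in capu (replicate 1 signal 39.2) and Sxl (52.6), and neither was in an own list. They were picked out after their values were seen.

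**Figure D3:**
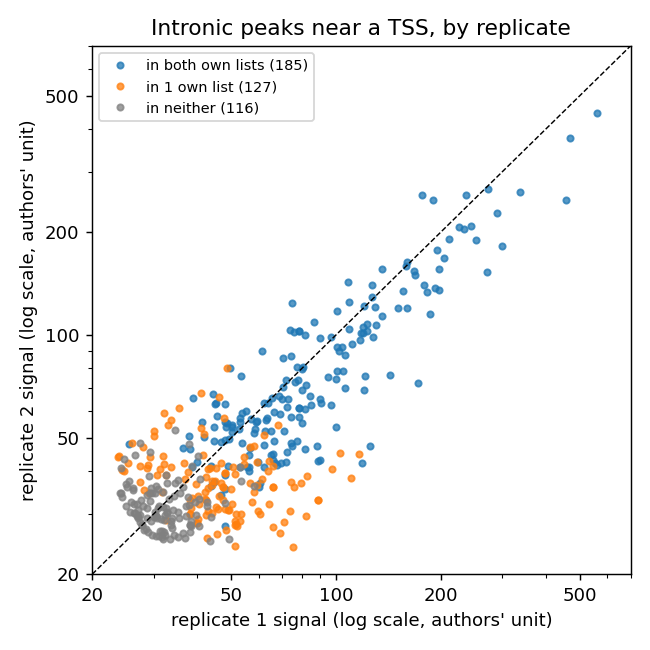
Signal of each of 428 intronic peaks near a TSS in replicate 1 (x) and replicate 2 (y), both on log scales in the authors' unit, coloured by presence in the own thresholded lists. Points in both own lists (185) fill the upper right, and points in neither (116 of those matched) sit at the low end; the dashed line marks equal signals.

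Of the ranked peaks that met the position rule, 3.43% (430 of 12547; 3.12% to 3.76%) were in the conservative set, against 2.15% of all ranked peaks. In the libraries taken alone, 3.12% of such peaks passed the threshold in replicate 1, against 1.80% of all, and 2.43% in replicate 2, against 1.44% of all. The mean of both was 2.77% ± 0.493 (SD, n = 2) for intronic peaks near a TSS and 1.19% ± 0.295 for far introns. Promoter peaks passed more often, with 6.03% in the conservative set.

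For 361 of the 430 peaks (84.0%, 80.1% to 87.3%) the nearest TSS was one of a gene that held the summit. The same was true of 71.4% of the bases of eligible DNA, a share below the interval. The remaining 69 peaks (16.05%), against 28.6% of the bases, had a TSS of another gene nearest, which in 36 cases was protein-coding, in 25 a noncoding RNA, in 4 a tRNA, in 3 a snoRNA and in 1 a snRNA. Of the 2 replicates' own lists, 84.9% in replicate 1 and 86.1% in replicate 2 had the host's own TSS nearest.

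Of the 430 peaks, 263 (61.2%, 56.4% to 65.8%) lay downstream of their nearest TSS, against 64.6% of the bases. Split by owner, 248 were downstream of their host's own TSS (57.7%, against 54.7% of the bases). A further 113 were upstream of a TSS of their host, that is, in the intron before an internal start (26.3%, 22.2% to 30.7%, against 16.7% of the bases). Those 113 had a median signal of 97.5 (quartiles 75.5 and 157), and the 248 had 83.8 (65.8 and 122). The strongest of the 113 were in ph-p, HmgZ, NFAT, chif, lncRNA:CR44810, Trl and CG9837.

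A first intron of at least 1 host transcript held 358 of the 430 summits (83.3%, 79.4% to 86.7%), against 64.6% of eligible bases and 61.3% of far-intron peaks. In the own lists it was 83.3% in replicate 1 and 84.5% in replicate 2. A further 52 were at lowest in the second intron, and 20 in later ones. The shortest annotated intron holding each summit, over all transcripts, had a median length of 4848 bp (quartiles 2200 and 10622). The median summit lay 814 bp from the nearest splice site of any intron that held it. In all, 22 summits (5.12%) were within 100 bp of a splice site. None was in an annotated transposable element, which allows a share of up to 0.854% (Clopper-Pearson upper bound). Intron length, splice-site distance and transposable elements were not counted over all eligible bases, so these values cannot be read as traits of the peaks.

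The 430 peaks lay in 395 protein-coding genes, 4.38% of the 9019 that have eligible DNA, and 5 were in noncoding genes alone. The hosts had a median length of 14.5 kb, against 3.37 kb for the other 8624, and a median of 3371 bp of eligible DNA, against 356 bp. Hosting ran with the amount of eligible DNA: among 4 equal groups of genes, 13.7% of the group with the most (1465 bp or more) hosted a peak, against 0.132% of the group with the least (119 bp or less).

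A promoter peak, a summit within 500 bp of any TSS of the gene, was present in 35.2% of the hosts (30.5% to 40.1%), against 12.5% of the other genes with eligible DNA and 13.5% of all 9019. The hosts had a median of 2 annotated TSS and the other genes 1, so there were more places for a promoter peak in the hosts, and the part of this in the difference was not tested. Among genes in the group with the most eligible DNA the shares were 37.0% for 308 hosts and 15.6% for 1945 others. In the next group (387 to 1464 bp) they were 27.2% for 81 hosts and 12.9% for 2175 others. Counted by peak, 167 of the 430 (38.8%, 34.2% to 43.6%) had a promoter peak in a host gene, against 29.5% of far-intron peaks. The share was 28.0% in replicate 1's own list and 26.7% in replicate 2's, where promoter peaks were also taken from that list.

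A promoter peak at the nearest TSS itself accompanied 91 of the 430 (21.2%). The median gap between both summits was 1106 bp. The intronic peak was the stronger of the pair in 46 of the 91, and the medians were 83.7 for the intronic peaks and 91.4 for their promoter partners. CG31635 had 372 in the intron, against 140 at the promoter 1118 bp away, and edl had 318, against 78.6 at 1927 bp. In both genes the intronic peak was the higher. At elav (119 in the intron, against 261) and Hsp83 (226, against 249) the promoter peak was the higher. Peaks with a promoter peak in the host had a median signal of 88.5 and those without 88.1, and both kinds were in both own lists at nearly the same rate, 42.5% and 43.3%.

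Most hosts held a single peak: 346 genes had 1, 38 had 2, 10 had 3 and CG1677 had 5. The 5 summits in CG1677 are spread over a gene of the X chromosome whose introns hold several smaller genes, and the nearest TSS belonged each time to another gene: unc-119 for 2 of them, and Dok, CG42780 and CBP for 1 each. Their signals were 72.9, 137, 193, 83.5 and 109, and 4 of the 5 were in both own lists. The noncoding gene lncRNA:CR44357 spans the same 5 summits.

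Among the genes with 3, Trl had signals of 431, 96.9 and 70.8, at 1556, 4806 and 661 bp from its first TSS. All 3 were in replicate 1's own list, and only the strongest was also in replicate 2's. In cno the signals were 430, 73.4 and 59.8. The 2 stronger lay in the first intron at 1931 and 1359 bp from the first TSS, and the weakest, at 23541 bp, was nearest to a TSS of snRNA:U4atac. NFAT had 518, 151 and 62.6, all before internal starts, and CHES-1-like had 433, 180 and 97.3 beside 6 other peaks of the set. CG9837 had 371, 120 and 57.2 in 1 intron of 3342 bp.

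Doa, a LAMMER kinase that phosphorylates splicing factors, had 132, 100 and 84.0, all in both own lists. SNF4Agamma, the gamma subunit of AMP-activated kinase, had 83.3, 77.7 and 60.2, none in both lists. Shrm, an actin-binding protein, had 74.1, 70.2 and 67.7, each near a different TSS and none in both lists. KCNQ had 316, 102 and 63.1, each nearest to a TSS of mlt. CG10543 had 139, 89.0 and 13.9, and the weakest lay 200 bp from the strongest and had the same matching peak in each replicate (78.4 and 61.3). So 2 of the 3 peaks of this gene stand for 1 peak in each library.

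**Figure D4:**
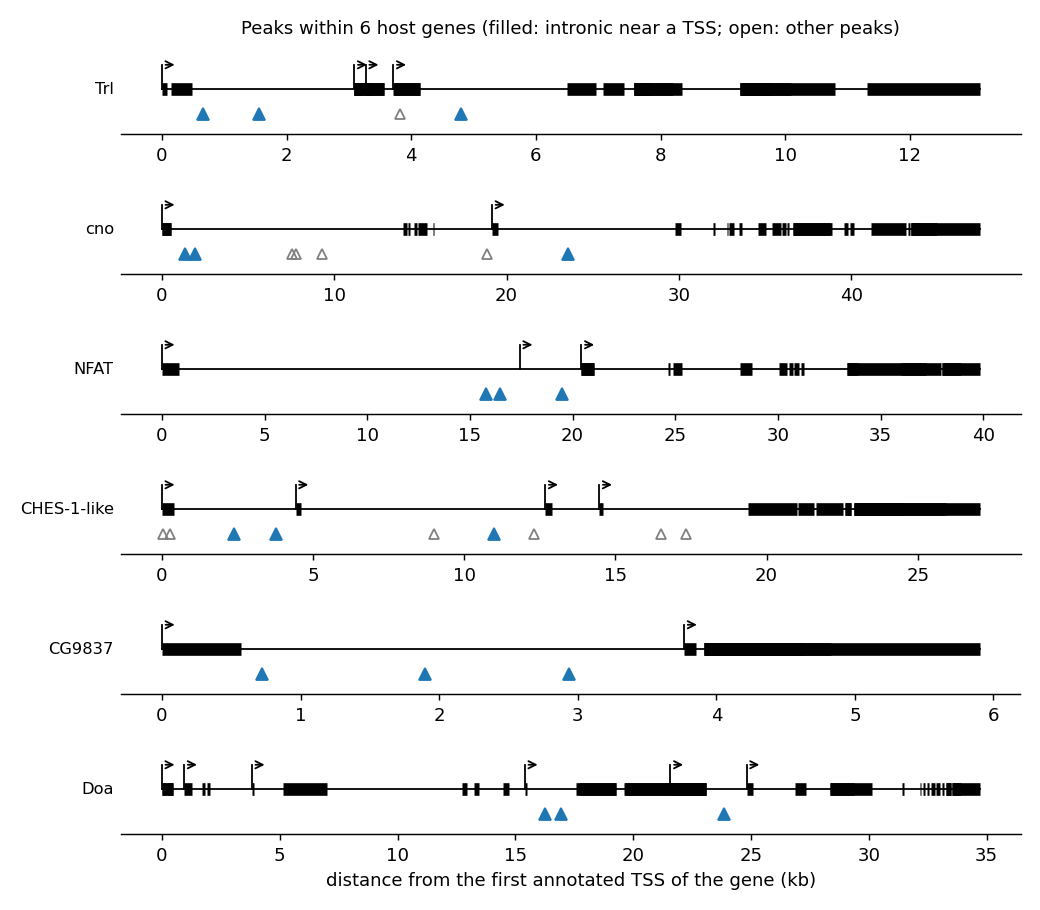
Maps of 6 genes with 3 intronic peaks near a TSS each (filled triangles); open triangles are other conservative peaks, thick bars exons, arrows annotated starts, and x the distance in kb from the gene's first TSS. In NFAT all 3 summits lie before internal starts, and in CG9837 they share 1 intron.

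The gene CG5953 itself held 1 of the peaks. It lay at chr2L:16521313-16521608 (dm6), in the second intron, 1284 bp before an internal TSS of the gene. Its signal was 76.0, with 29.3 in replicate 1 and 45.4 in replicate 2, and it was in neither own list. The span of CG5953 held 2 further conservative peaks, both at promoters.

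By gene list, 64 of the 494 listed genes with eligible DNA (13.0%) hosted a peak, against 4.38% of all such genes. The lists are built of well studied and often long genes, so the density per Mb of eligible DNA is given as well, to be read against 37.8. Most lists hold few peaks, and their densities are uncertain. A host is a gene that holds the summit, and the nearest TSS can be that of another gene. Among the hosts named below this was so for the strongest peak of Btk, drk, tkv, HmgD, kirre, fra, NetB, br, ptc, dally and Cdk4. The highest counts were in signalling and in RNA binding. Signalling kinases and phosphatases had 10 hosts of 34 (89.7 peaks per Mb), led by for, Btk (signal 242; replicates 130 and 107), dco (122; 58.6 and 53.1), a casein kinase, and Src64B (117; 62.3 and 51.0). RNA-binding and splicing genes had 10 of 37 (63.4 per Mb), led by mub, brat (215; 117 and 96.5), a translational repressor, Hrb27C (120; 53.1 and 57.2) and the neural protein elav (119; 49.6 and 79.9).

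The EGFR and FGFR pathway had 7 hosts of 25 (82.9 per Mb). They included S (Star, which helps export the EGFR ligand; signal 240, replicates 121 and 122), the adaptor drk (221; 101 and 118), the FGF ligand ths (136; 72.8 and 65.1) and the antagonist sty (126; 82.6 and 38.8). The TGF-beta pathway had 4 of 15 (101.2 per Mb): Mad (326; 167 and 154), the type II receptor wit (234; 123 and 103), the Mad partner shn (103; 59.5 and 36.5) and the type I receptor tkv (48.1; 29.3 and 32.7). Of these 8 peaks, 5 were in both own lists, those of sty and shn only in replicate 1's, and that of tkv in neither.

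Chromatin genes had 7 hosts of 41 and the highest density of any list, 147 per Mb, from 10 peaks in 0.0681 Mb. The hosts were led by ph-p, HmgD, HmgZ and Trl, and the strongest peak of HmgD and of HmgZ is the same peak. Cytoskeleton and adhesion genes had 7 of 40 (65.2 per Mb), with cno, the ERM protein Moe (226; 120 and 105), the cofilin tsr (175; 75.8 and 102) and the polarity protein crb (86.0; 40.2 and 44.3). Mesoderm and muscle genes had 4 of 26 (34.5 per Mb), with mbc (110), kirre (107), zfh1 (94.1) and rhea (65.4). Neural genes had 4 of 32 (31.5 per Mb), with the netrin receptor fra (169), Ten-a (138), elav and the netrin NetB (103). The mesoderm and neural lists were thus near the density of all eligible DNA, and the intervals of their host shares, 15.4% (4.36% to 34.9%) and 12.5% (3.51% to 29.0%), held 4.38%.

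Lists with 3 or fewer hosts were transport (3 of 27, 109 per Mb, with Rab11, Rab14 and Rtnl1) and ecdysone (3 of 21, 33.5 per Mb, with br, tai and EcR). The Notch pathway had 2 of 18 (39.3 per Mb), the ubiquitin ligase neur and the corepressor gro. The Wnt and Hedgehog pathways had 2 of 27 (26.9 per Mb), the Hedgehog receptor ptc and the proteoglycan dally. Single hosts were InR of the Hippo and growth list (251; 108 and 143; 26.5 per Mb) and sima of the sugar metabolism list (280; 160 and 120; 45.8 per Mb). Hsp83 was that of the stress list (226; 128 and 98.6; 41.7 per Mb) and Cdk4 that of the cell cycle list (80.0; 33.1 and 54.4; 33.0 per Mb). InR, sima and Hsp83 were in both own lists, and Cdk4 only in that of replicate 2. No host was found among 26 Hox and segmentation genes, 27 cytosolic ribosomal protein genes, 18 translation factors and 17 Toll and Imd genes. These 4 lists hold only 0.0573, 0.00534, 0.0122 and 0.0225 Mb of eligible DNA, and the intervals of their host shares reach up to 13.2%, 12.8%, 18.5% and 19.5%, so they hold the 4.38% of all genes.

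By chromosome, the density of these peaks was 43.9 per Mb of eligible DNA on X (35.6 to 53.6), 40.04 on 3R, 36.5 on 2R, 35.7 on 3L and 33.5 on 2L, with overlapping intervals. Chromosome 4 had 2 peaks and Y none. The median signal was 103 on X, against 81.8 to 88.1 on the 4 large autosomal arms. The conservative peaks at other locations had a median of 91.0 on X, against 78.1 to 82.8 on those arms, so X had the highest of these 5 medians in both.

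The windows of 100 bp on each side of the summits had a median GC content of 36.8% (quartiles 32.3% and 42.3%), against 39.8% (33.8% and 45.8%) in 56539 windows of that length tiled over all eligible DNA. In the own lists the median was 34.8% in replicate 1 and 37.3% in replicate 2. Around the summits of far-intron peaks, of promoter peaks and of all 3015 conservative peaks it was 37.8%. Since short AT-rich motifs follow base composition, each motif share below is set beside all tiled windows and beside tiled windows weighted to the GC content of the peaks, an alternative added after the data were seen.

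Of 24 motifs, 6 had a tiled share below the interval of the peaks, 1 above it and 17 inside it. The forkhead motif was in 87 of the 430 windows (20.2%, 16.5% to 24.3%), against 11.1% of tiled windows and 12.1% at matched GC. It was in 16.98% of far-intron peaks and 14.0% of promoter peaks, and in the own lists of replicates 1 and 2 in 19.6% and 22.7%. GAGAG was in 28.8% (24.6% to 33.4%), against 20.9% of tiled windows and 19.3% at matched GC, and in 26.7% of all conservative peaks. Its excess over tiled windows, 7.89 percentage points, was 2.39 with 50 bp on each side of the summit, where the tiled share lay inside the interval, and 14.2 with 150 bp. The longer run GAGAGAGA was in 3.26%, against 1.51% and 1.26%. Its tiled share lay inside the interval with 50 bp on each side (an excess of 0.147 points, against 1.74 in the main windows), among peaks with a score of 1000 (1.57) and in the own lists of replicates 1 (1.38) and 2 (0.876).

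The GATA motif was in 42.3% of the windows (37.6% to 47.2%), against 34.6% of tiled windows and 36.9% at matched GC, and in 35.5% of far-intron and 32.5% of promoter peaks. Its excess over tiled windows was 7.72 points, and the tiled share lay inside the interval with 150 bp on each side (4.77 points) and in the own list of replicate 2 (6.03 points). TATAAA (30.2%, against 25.6%) and a run of 8 A (16.98%, against 13.1%) were above the tiled share as well, and at matched GC the tiled shares, 29.2% and 14.4%, lay inside the intervals, as did the plain tiled shares with 150 bp on each side and in the own list of replicate 2, and for the run of A also among peaks with a score of 1000. TATAAA was in 30.4% of far-intron and 31.5% of promoter peaks, and the run of A in 16.4% and 12.7%. GCCAT, the core letters read by the Polycomb recruiter Pho, was in 26.05% (21.96% to 30.5%), against 34.0% of tiled windows and 31.8% at matched GC. It was in 30.7% of far-intron peaks, just above that interval, and in 27.6% of promoter peaks and 29.0% of all conservative peaks, both inside it. Tiled windows of far introns and promoters were not counted. TATCGATA, the letters of the DNA replication-related element of housekeeping promoters, was in 0 of 430 windows, which allows up to 0.854%, against 0.428% of tiled windows and 4.76% of promoter peaks. A difference from the tiled windows was thus not detectable at this number of peaks, while the share in promoter peaks was above the upper bound.

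**Figure D5:**
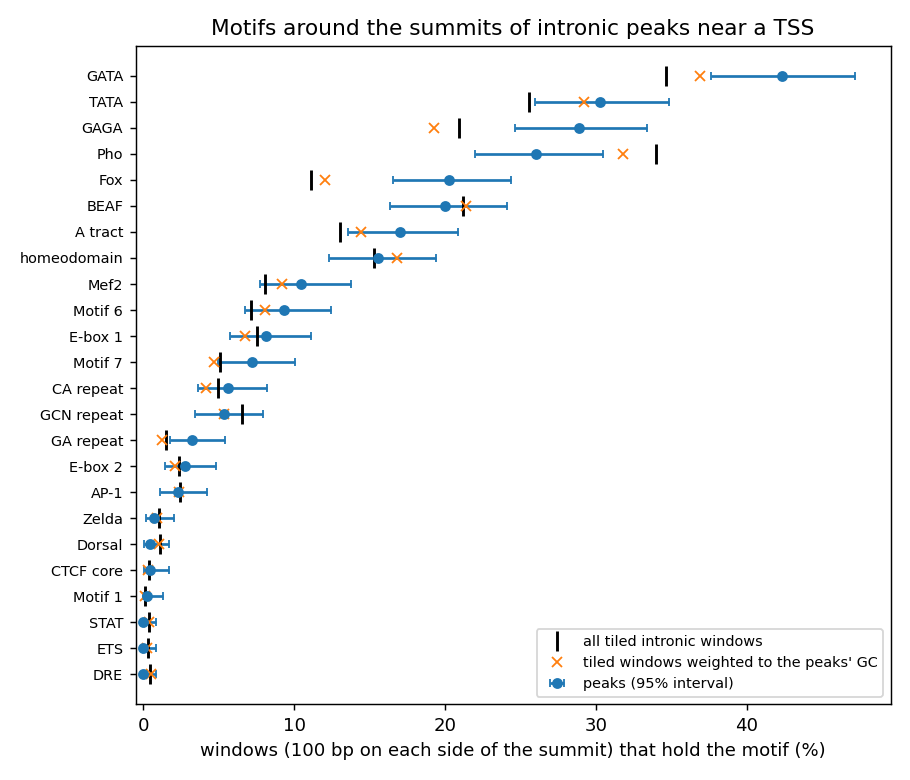
Share of windows of 100 bp on each side of the summit (x, %) that hold each of 24 motifs (y): intronic peaks near a TSS (circles, 95% Clopper-Pearson intervals), all tiled windows of eligible DNA (bars) and tiled windows weighted to the peaks' GC content (crosses). Forkhead (Fox) at 20.2% lies furthest from its tiled share, 11.1%, in ratio among motifs held by over 10% of windows.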

How the data were processed

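Peak lists on dm6 were used. Per the labels' text files, the authors' IDR procedure (irreproducible discovery rate, how well peak ranks repeat) gave ranked and thresholded lists, for each library alone and for both together, the conservative set being made from both. The aligner, the peak caller and their settings were not given in the sources used here. The deposited signal of each peak is the authors' value, with no stated unit. The deposited score rescales the IDR to at most 1000. Without reads in the lists, depth is unknown.

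Summits were placed on Ensembl release 115 (BDGP6), without transposable elements and pseudogenes, and on the RefSeq copy of the Release 6 genome, whose arms have the lengths of dm6. Scripts used Python 3.11.15, numpy 2.4.6, pandas 2.3.3, scipy 1.17.1 and matplotlib 3.10.9, and were tested on simulated data: 100% of 840 positions on a made-up annotation fell in the right class. A replicate's signal is that of its strongest ranked peak overlapping by at least 1 bp. A first intron is one of any host transcript. Without a second group no test between groups was made. Shares have Clopper-Pearson intervals and densities exact Poisson intervals, at 95%.

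Named genes are the hosts and nearest-TSS genes of the 25 strongest peaks, hosts of 3 or more, up to 4 hosts per list by signal, and genes at the limits of the rule. The host of 1 of the 25 strongest peaks is not reported here. The class of peaks, the 20 gene lists (648 of 657 symbols found) and motifs were chosen with earlier results of these data known.

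Motifs were searched on both strands: GAGA factor (GAGAG), repeat of it (GAGAGAGA), CTCF core (AGGTGGCG), Zelda (CAGGTAG), Pho (GCCAT), DRE (TATCGATA), Motif 1 (GGTCACACT), Motif 6 (GTATTTT), Motif 7 (CANCNCTN, with G or T as the first N and A or G as the last), E-box 1 (CAGCTG), E-box 2 (CACGTG), ETS (CCGGAAGT), AP-1 (TGANTCA, with C or G as N), STAT (TTCCNGGAA), GATA, homeodomain (TAATTA), forkhead, the core promoter box (TATAAA), CA repeat (CACACACA), A tract (AAAAAAAA), GCN repeat (GCNGCNGC), BEAF (CGATA), and Mef2 and Dorsal by consensus. GA repeats also match GAGAG, and DRE also matches BEAF.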

Additional observations from a re-analysis of the deposited data

How the results depend on the processing

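No paired analysis was possible because both libraries belong to 1 group. The alternatives were the optimal set (the authors' second thresholded list of both libraries), peaks with a score of 1000, each replicate's own list, other distance limits, a protein-coding annotation, peak midpoints (which gave the same values), and, added after the data were seen, an annotation with transposable elements and pseudogenes and tiled windows weighted by GC. Of 129 values, 73 stayed within 1.5 times (counts), the spread between replicates or the interval, and 56 moved. In what follows, the order is share of all peaks, median signal, nearest TSS that of a host, downstream, first intron, host promoter peak, median GC, peaks per Mb and ranked peaks passed, and only values that moved are given, except for the own lists, where all are. With a score of 1000: 15.3%, 105, 84.9%, 58.6%, 81.8%, 32.1% and 28.5 per Mb; found in the own lists 79.0% (replicate 1), 66.4% (replicate 2) and 56.2% (both). Over 250 bp: 18.9%, downstream 55.2%, 80.5%, 51.7% and 41.7 per Mb. Here a peak within 500 bp of a TSS of its host also counted as the promoter peak of that host. The rise to 51.7% is thus set in part by the definition and cannot be read as a trait of the peaks. Over 1000 bp: 226 peaks, 7.496%, 83.9, 81.9%, 63.3%, 42.9%, 32.3 per Mb and 2.91%. Up to 1500 bp: 11.2%. Up to 3000 bp: 18.3%, 84.8, 81.9%, 62.1%, 80.8%, 36.5% and 33.0 per Mb. Optimal set: signal 82.2, host promoter peak 39.9% and 41.6 per Mb. Protein-coding only: host TSS 91.0% and downstream 63.6%. With transposable elements and pseudogenes: 14.8%, host TSS 79.8%, downstream 59.1% and first intron 81.6%. In the own lists (without replicate 1 and without replicate 2): 251 and 311 peaks, 15.1% and 15.7%, signal 55.7 and 60.2 (on another list's scale), 86.1% and 84.9%, 57.0% and 57.6%, 84.5% and 83.3%, 26.7% and 28.0%, GC 37.3% and 34.8%, 22.04 and 27.3 per Mb, and 2.43% and 3.12% passed. The spread used is the SD of 2 lists, so small moves count. Motifs with a tiled share outside the interval numbered 7, and 5 to 10 under the alternatives; of 168 values for single motifs, 14 lost that status (those of GAGA factor, single and repeated, the GATA motif, the core promoter box and the run of A) and 11 gained it, and no motif with it changed direction. Gene-list hosts numbered 64, and 46 to 82.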

Other observations

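Words of 6 bases within 50 bp of the summits were counted after the data were seen, and no test was made. Of 633 words held by 20 or more of the 430 peaks, CTGTAC had the highest ratio to tiled windows of eligible DNA, with 5.35% of peaks, against 2.15% of 112833 tiled windows of that length. It was in 2.93% of far-intron peaks and 2.12% of promoter peaks. ACTGTA was in 8.37%, against 3.75% of tiled windows, 5.09% of far-intron and 5.201% of promoter peaks. ACAGTG was also in 8.37%, against 3.87% of tiled windows, but was in 8.18% of far-intron and 7.47% of promoter peaks. With so many words, the highest ratios lie above those of most words by the choice alone.

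Of the 430 peaks, 12 had a signal under 20 in the conservative set, and 10 of them overlapped another conservative peak. Their replicate signals were 27.7 to 89.0 in replicate 1 and 26.8 to 103 in replicate 2, within the range of the other peaks. In JIL-1, a histone H3 kinase, the signal was 16.4, with 78.3 in replicate 1 and 103 in replicate 2, and another summit lay 202 bp away. In tna it was 8.46, with 89.0 and 33.1, and in Ptpmeg2, the lowest, 2.45, with 47.4 and 35.9. The replicate value is that of the strongest overlapping peak, which such neighbours can share. In all, 27 of the 430 overlapped another conservative peak. These genes were picked out after their values were seen.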
